A study of Homo sapiens with 8 samples.

Results

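This comparison sets islet-like cells that lack ISL1 directly against islet-like cells that lack PAX6, both with a control vector. It uses 6 of the 21 libraries of the series, chosen by their labels alone: 3 libraries of ISL1 KO BFP and 3 of PAX6 KO BFP. Both lines derive from H1, a human embryonic stem cell line in wide use, whose cells were led through pancreatic stages in culture. ISL1 KO cells carry a knockout of ISL1 and PAX6 KO cells a knockout of PAX6. On day 11 of differentiation all 6 cultures were transduced with a vector for blue fluorescent protein (BFP) alone, and RNA was taken on day 18. The 2 WT BFP libraries, unedited H1 cells with the same vector and the same days, give the reference level. The 3 PDX1 KO BFP libraries, with a knockout of PDX1, enter the same model, and their levels are given for a few genes. A further 6 libraries of the ISL1 KO and PAX6 KO lines, labelled ISL1 OE, had a vector for ISL1 and BFP together and the same days. They were fitted apart and are reported further below. The replicates are described as biological and nothing more is said of how they were separated, so p-values measure the spread between these libraries. The labels do not say how many clones stand behind each knockout line, so line and genotype cannot be told apart.

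Islets hold several endocrine cell types, each known by the peptide it secretes: alpha cells make glucagon, beta cells insulin, delta cells somatostatin, gamma cells pancreatic polypeptide and epsilon cells ghrelin. They descend from progenitors that transiently express NEUROG3. ISL1 is a LIM homeodomain factor and PAX6 a factor with a paired domain and a homeodomain; both are made in endocrine cells after NEUROG3 and are known to be needed for normal hormone gene activity. LIM homeodomain factors work with the adaptor LDB1, and homeodomains favour DNA with a TAAT core.

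The hormone genes on which the results turn differ in how many such cores lie before their start sites. The 250 bases before the start are shown for 6 of them, 5′ to 3′ on the strand of the gene, from RefSeq on GRCh38.p14. Capitals mark TAAT or its reverse complement ATTA, found on both strands with overlaps counted. The windows are chr11:2161210-2161459 for INS, chr2:162152248-162152497 for GCG, chr3:187670395-187670644 for SST, chr3:10292948-10293197 for GHRL, chr17:48968597-48968846 for GIP and chr3:42266186-42266435 for the upstream one of 2 CCK entries, all on the minus strand.
INS: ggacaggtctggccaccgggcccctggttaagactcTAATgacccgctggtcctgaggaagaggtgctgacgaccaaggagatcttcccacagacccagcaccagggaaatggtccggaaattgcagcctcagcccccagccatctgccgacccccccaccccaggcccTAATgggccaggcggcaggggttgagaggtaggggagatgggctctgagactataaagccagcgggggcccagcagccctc
GCG: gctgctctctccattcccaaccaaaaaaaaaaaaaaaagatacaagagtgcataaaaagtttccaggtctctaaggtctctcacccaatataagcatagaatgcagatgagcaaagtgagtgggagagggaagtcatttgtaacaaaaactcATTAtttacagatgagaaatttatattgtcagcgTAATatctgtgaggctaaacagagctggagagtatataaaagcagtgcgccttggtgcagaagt
SST: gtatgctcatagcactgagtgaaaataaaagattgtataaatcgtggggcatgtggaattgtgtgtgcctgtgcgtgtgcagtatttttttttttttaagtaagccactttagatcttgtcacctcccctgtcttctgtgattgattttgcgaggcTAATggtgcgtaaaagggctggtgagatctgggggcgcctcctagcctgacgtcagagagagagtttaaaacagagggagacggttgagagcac
GHRL: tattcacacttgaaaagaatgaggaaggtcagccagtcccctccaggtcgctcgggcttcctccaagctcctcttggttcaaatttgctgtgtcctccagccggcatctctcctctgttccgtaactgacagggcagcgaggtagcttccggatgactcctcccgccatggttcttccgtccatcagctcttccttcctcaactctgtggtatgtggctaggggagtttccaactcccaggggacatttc
GIP: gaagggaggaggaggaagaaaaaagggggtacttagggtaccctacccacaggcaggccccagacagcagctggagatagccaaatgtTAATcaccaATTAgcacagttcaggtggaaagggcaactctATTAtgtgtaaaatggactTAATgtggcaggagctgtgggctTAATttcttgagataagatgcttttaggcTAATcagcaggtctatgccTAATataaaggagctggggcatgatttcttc
CCK: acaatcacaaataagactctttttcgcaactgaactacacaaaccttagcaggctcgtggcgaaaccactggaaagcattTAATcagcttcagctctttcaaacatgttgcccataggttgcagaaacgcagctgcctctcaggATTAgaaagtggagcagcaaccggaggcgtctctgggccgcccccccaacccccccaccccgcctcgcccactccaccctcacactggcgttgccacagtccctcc
The core was found 7 times before GIP, 2 times before each of INS, GCG and CCK, 1 time before SST and 0 times before GHRL. The window of the other CCK entry, not shown, held 1. Of 35114 RefSeq promoters of the same length, 47.4% held at least 1 core and 2.12% held as many as GIP. The longer motif CTAATG, which contains the core, was found 2 times before INS and 1 time before SST, and in 5.57% of all promoters. The motif TTCACGC was in none of these 6 windows and in 1.1% of all. A match is a string of letters in this window and says nothing of binding.

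Each of the 6 libraries held between 51192349 and 66818614 counts, and between 25511 and 26430 genes had a count. The first principal component of log2 CPM held 49.7% of the variance and separated the genotypes. The second held 17.2%, with PAX6 KO replicate 2 at 49.1 and ISL1 KO replicate 3 at −38.0 as its ends. Correlations between libraries of log2 CPM across genes were 0.981 to 0.988 within a genotype and 0.966 to 0.972 between genotypes. Replicate 1 of both knockouts was read on lanes 5 to 8 and replicates 2 and 3 on lanes 1 to 4. The general endocrine marker CHGA, the secretory granule protein chromogranin A, stood at 21830, 21600 and 30240 CPM in ISL1 KO and 20340, 13870 and 23110 CPM in PAX6 KO, overlapping ranges beside 17510 and 21230 in WT (log2 difference 0.36 ± 0.18, adjusted p = 0.264). Throughout, CPM are counts per 1000000 counts after TMM scaling of the library size, a log2 difference is ISL1 KO minus PAX6 KO ± SE, so positive values are higher in ISL1 KO, and a gene is called at an adjusted p under 0.05 in edgeR's quasi-likelihood test with Benjamini-Hochberg adjustment over all genes tested.

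The 2 targeted genes were examined first. ISL1 (chromosome 5, 51383391 to 51394738, GRCh38, plus strand) had 65.6, 66.7 and 72.8 CPM in ISL1 KO, 193, 125.5 and 214 in PAX6 KO and 285 and 482 in WT. Every ISL1 KO library lay below every PAX6 KO library, and the log2 difference was −1.38 ± 0.21 (adjusted p = 0.00154). PAX6 KO also lay below WT in ISL1 RNA, by −1.11 on the log2 scale (adjusted p = 0.00393). PAX6 (chromosome 11, 31784779 to 31818062, minus strand) had 77.2, 76.2 and 115.9 CPM in ISL1 KO, 140.5, 100.5 and 160.1 in PAX6 KO and 143 and 234 in WT. The ranges of the knockouts overlapped, the log2 difference of −0.57 ± 0.22 was not called (adjusted p = 0.135), and PAX6 RNA was called lower than WT in ISL1 KO (−1.07 on the log2 scale, adjusted p = 0.00703) and not in PAX6 KO (−0.50, adjusted p = 0.153). PAX6 RNA therefore does not check the label of the PAX6 KO libraries; a count over the whole gene does not show an edit that leaves the transcript in place.

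Of 21200 genes tested, 1941 were called between the knockouts, 9.16% of those tested. Of these, 883 (4.17%) were higher in ISL1 KO and 1058 (4.99%) higher in PAX6 KO. The 3 libraries of one knockout lay wholly above the 3 of the other in 1918 of the called genes, against 5363 of all genes tested (25.3%). The median difference over all genes was 0.02 on the log2 scale, and the median size among called genes was 1.06. Differences of over 1 on the log2 scale were called for 1040 genes, 404 higher in ISL1 KO and 636 higher in PAX6 KO, and differences of over 3 for 183 genes, 59 of them higher in ISL1 KO. In the same fit, 5741 genes (27.1%) were called between ISL1 KO and WT and 5900 (27.8%) between PAX6 KO and WT; these 2 comparisons share the WT libraries. Calls depended on single libraries: 2612 genes were called without PAX6 KO replicate 2, and 1178 without ISL1 KO replicate 1, 1248 without PAX6 KO replicate 1 and 1251 without PAX6 KO replicate 3. With library sizes alone, without TMM factors, 35.4% of the calls were higher in ISL1 KO, against 45.5% with them, a split of 677 and 1238. In the plot of differences against mean level, GHRL and CRH are the called genes furthest below 0 at moderate or high level and CAT and CCK those furthest above.

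**Figure D1:**
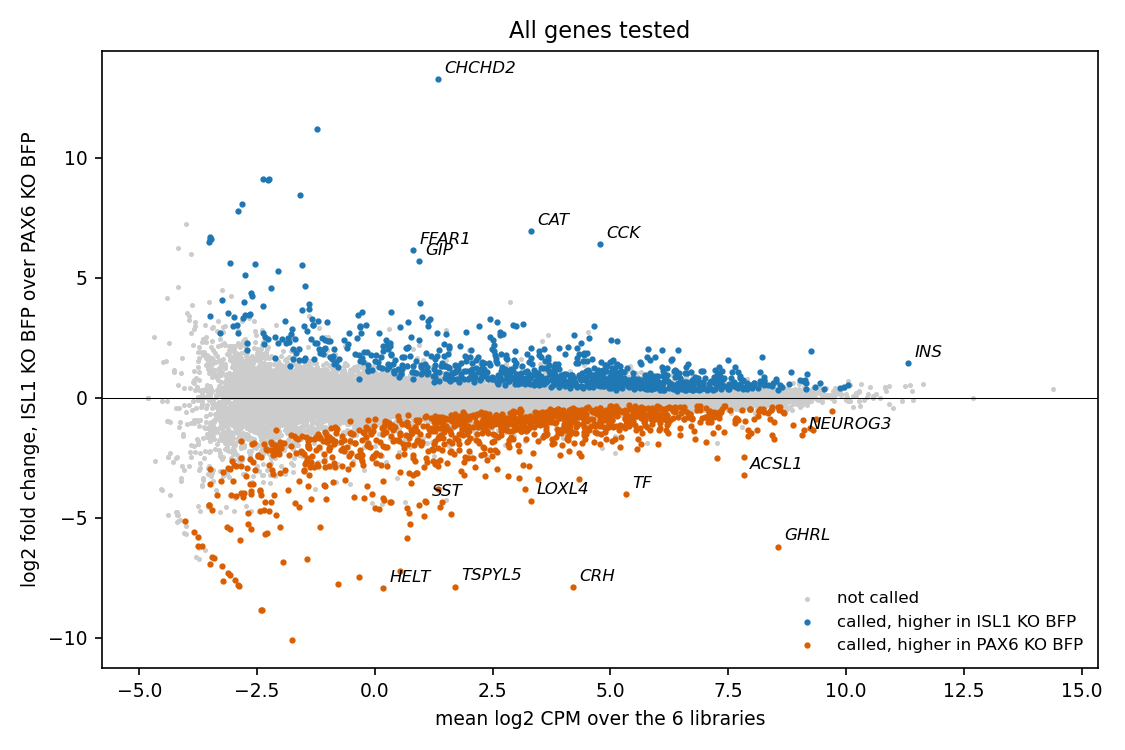
Log2 difference between ISL1 KO BFP and PAX6 KO BFP (vertical) against mean log2 CPM over the 6 libraries (horizontal), 1 point per gene tested. Blue points are the 883 genes called higher in ISL1 KO and orange points the 1058 called higher in PAX6 KO; INS lies above 0 and GHRL, CRH and SST below.

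The islet hormones separated the knockouts in opposite directions: insulin RNA was higher in ISL1 KO, while ghrelin and somatostatin RNA were higher in PAX6 KO. GHRL, which encodes ghrelin, had 41.7, 38.7 and 51.0 CPM in ISL1 KO, 3469, 2557 and 3700 in PAX6 KO and 77.6 and 88.2 in WT. The PAX6 KO libraries stood far above both other groups, which lay close to each other, and the log2 difference was −6.21 ± 0.25 (adjusted p = 4.18e-08). INS, the insulin gene, had 4465, 4821 and 3361 CPM in ISL1 KO, 1834, 1614 and 1240 in PAX6 KO and 13270 and 10390 in WT. All 3 ISL1 KO libraries lay above all PAX6 KO libraries and all 6 below WT, with a log2 difference of 1.43 ± 0.25 (adjusted p = 0.00365). SST, the somatostatin gene, had 0.361, 0.551 and 0.523 CPM in ISL1 KO, 10.1, 4.38 and 15.4 in PAX6 KO and 87.8 and 132 in WT. The groups did not overlap, and the difference of −4.37 ± 0.59 was called (adjusted p = 0.000616). In bulk RNA, fewer cells of a type and less RNA per cell cannot be told apart.

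Glucagon RNA was low in both knockouts. GCG had 87.7, 73.2 and 83.5 CPM in ISL1 KO and 27.7, 15.3 and 72.7 in PAX6 KO, against 33890 and 47980 in WT. The ISL1 KO libraries were tightly grouped and just above the highest PAX6 KO library, while PAX6 KO spread several-fold among its replicates. The difference of 1.08 ± 0.41 was not called (adjusted p = 0.129). It was called without PAX6 KO replicate 3, at 1.92 (adjusted p = 0.00105), and with no filter on low counts, at 1.08 (adjusted p = 0.0415). Each knockout was called lower than WT (−8.97 and −10.05 on the log2 scale). PYY, a gut and islet peptide, had 0.771, 0.389 and 1.10 CPM in ISL1 KO and 0.356, 0.230 and 0.557 in PAX6 KO (0.99 ± 0.37, adjusted p = 0.128), against 90.4 and 75.2 in WT. PPY, the pancreatic polypeptide gene, had 0, 0 and 1 counts in ISL1 KO and 1, 2 and 4 in PAX6 KO, while WT had 1.39 and 3.39 CPM, and was not called (adjusted p = 0.165). IAPP, the islet amyloid peptide that beta cells release with insulin, was near the bottom in both: 5, 10 and 9 counts in ISL1 KO and 13, 16 and 27 in PAX6 KO, against 395 and 275 in WT. Its call (adjusted p = 0.0463) was lost without any of the 3 ISL1 KO libraries, PAX6 KO replicate 1 or PAX6 KO replicate 3, with an adjusted p of up to 0.178.

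**Figure D2:**
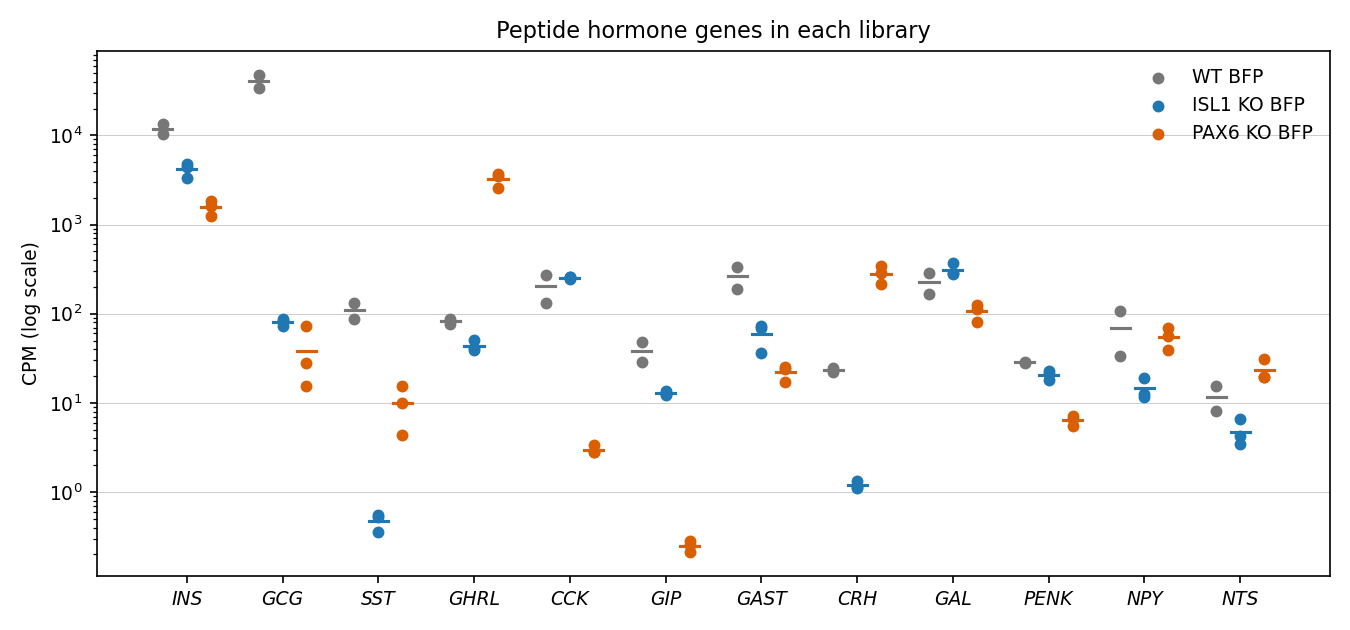
CPM on a log scale for 12 peptide hormone genes, 1 point per library, with a bar at each group mean, in WT BFP (2 libraries), ISL1 KO BFP (3) and PAX6 KO BFP (3). GHRL and CRH are higher in PAX6 KO than in ISL1 KO, and CCK and GIP are higher in ISL1 KO. GIP lies below WT in both knockouts, and GCG is low in both.

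Peptides of gut and nervous tissue also split between the knockouts. Of the 21 peptide hormone genes tested outside the islet set, 7 were higher in ISL1 KO and 6 higher in PAX6 KO, 13 of 21 (61.9%) against 9.16% of all genes. The list's median difference was 0.15, against 0.02 over all genes. CRH, corticotropin-releasing hormone, had 1.10, 1.14 and 1.32 CPM in ISL1 KO, 289.7, 214 and 342 in PAX6 KO and 21.96 and 24.3 in WT. Its level was near 1 CPM in every ISL1 KO library and far higher in every PAX6 KO library, with WT between them, and the log2 difference was −7.89 ± 0.31 (adjusted p = 4.18e-08). CCK, cholecystokinin, ran the other way, with 259, 246 and 255 CPM in ISL1 KO, 2.79, 3.34 and 2.82 in PAX6 KO and 271 and 133 in WT. ISL1 KO lay within the range of WT, and all PAX6 KO libraries lay far below it (6.41 ± 0.28, adjusted p = 1.02e-07). GIP, a gut incretin, had 13.5, 12.5 and 12.4 CPM in ISL1 KO, 0.281, 0.214 and 0.253 in PAX6 KO and 28.5 and 48.2 in WT (5.67 ± 0.25, adjusted p = 1.02e-07). Its level in WT was above that of both knockouts.

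Among the remaining called peptide genes other than VIP, the differences were smaller. PENK, which encodes enkephalins, had 22.8, 21.2 and 17.9 CPM in ISL1 KO and 7.08, 6.60 and 5.503 in PAX6 KO, non-overlapping groups with a log2 difference of 1.69 ± 0.18 (adjusted p = 9.98e-05). GAST, the gastrin gene, had 68.5, 72.0 and 36.0 CPM in ISL1 KO, 24.2, 25.1 and 17.1 in PAX6 KO and 336 and 190.0 in WT, so that both knockouts lay below WT and PAX6 KO lowest (1.41 ± 0.28, adjusted p = 0.00728). The others higher in ISL1 KO were GAL, PDYN and SCT, which encode galanin, dynorphins and secretin, at differences of 1.55, 1.68 and 1.06. The others higher in PAX6 KO were NTS, NPY, TRH and TAC3, which encode neurotensin, neuropeptide Y, thyrotropin-releasing hormone and neurokinin B, at −2.31, −1.92, −1.62 and −1.34, and VIP. These 8 genes are named because every called member of the list is given, not by the rule for named genes. VIP, vasoactive intestinal peptide, had 0 counts in every ISL1 KO and WT library and 21, 24 and 41 in PAX6 KO, at least 10.3-fold higher than a floor of 3 counts per library.

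Some genes of epsilon cells were higher in PAX6 KO beyond ghrelin itself. Of 19 tested, 8 were higher in PAX6 KO and 0 in ISL1 KO (42.1%), 11 were not called, and the list's median difference was −0.43. MBOAT4, the acyltransferase that attaches the fatty acid ghrelin needs for activity, had 2.15, 2.04 and 1.23 CPM in ISL1 KO, 12.3, 7.32 and 11.1 in PAX6 KO and 3.43 and 2.84 in WT. The groups did not overlap (−2.50 ± 0.25, adjusted p = 8.53e-05). ACSL1, which activates long-chain fatty acids as their coenzyme A esters, had 69.5, 87.8 and 68.2 CPM in ISL1 KO, 828, 521 and 772 in PAX6 KO and 106 and 114 in WT (−3.23 ± 0.17, adjusted p = 5.09e-07). DCDC2, a doublecortin-domain protein of microtubules, had 3.79, 4.43 and 4.28 CPM in ISL1 KO and 14.8, 20.7 and 13.7 in PAX6 KO (−1.98 ± 0.17, adjusted p = 2.86e-05). For these 3 genes, as for GHRL, the PAX6 KO libraries stood above the others and above WT. Against WT, 7 epsilon genes were higher and 5 lower in PAX6 KO, while 2 were higher and 12 lower in ISL1 KO.

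Among called alpha, delta and gamma cell genes, more were higher in PAX6 KO than in ISL1 KO. Against WT, PAX6 KO was higher in 1 and lower in 9 alpha cell genes, 1 and 6 delta and 1 and 8 gamma. ISL1 KO was higher in 3 and lower in 13 alpha cell genes, 0 and 10 delta and 0 and 10 gamma. Of 21 alpha cell genes tested, 6 were higher in PAX6 KO and 2 in ISL1 KO (38.1%; median −0.22). LOXL4, a matrix cross-linking oxidase, had 1.61, 2.85 and 2.42 CPM in ISL1 KO, 47.2, 27.7 and 60.3 in PAX6 KO and 69.3 and 98.2 in WT (−4.29 ± 0.31, adjusted p = 7.36e-06). All ISL1 KO libraries lay far below both other groups, and PAX6 KO lay below WT. TTR, the carrier protein transthyretin, had 420.2, 379 and 397 CPM in ISL1 KO and 1026, 761 and 1257 in PAX6 KO, both under the 3491 and 3058 of WT (−1.35 ± 0.15, adjusted p = 0.000197). PTGER3, a receptor of prostaglandin E, went the other way, with 33.5, 55.0 and 52.7 CPM in ISL1 KO and 9.79, 5.76 and 7.75 in PAX6 KO (2.60 ± 0.24, adjusted p = 3.59e-05). IRX2, a transcription factor of alpha cells, was not called (a difference of −0.46 ± 0.17, adjusted p = 0.109).

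Of 11 delta cell genes tested, 6 were higher in PAX6 KO and 1 in ISL1 KO (63.6%; median −0.81). FFAR4, a receptor of long-chain fatty acids, had 0.197, 0.0649 and 0.363 CPM in ISL1 KO, 14.04, 9.26 and 13.96 in PAX6 KO and 1.88 and 3.88 in WT. Its PAX6 KO libraries were above WT, unlike those of SST, which stayed below WT (−5.86 ± 0.46, adjusted p = 1.29e-05). PDLIM4, a PDZ and LIM domain protein of the actin cytoskeleton, had 13.2, 11.9 and 12.7 CPM in ISL1 KO and 30.4, 25.98 and 32.5 in PAX6 KO (−1.23 ± 0.13, adjusted p = 9.76e-05). CASR, the calcium-sensing receptor, was the member higher in ISL1 KO, with 18.2, 28.1 and 22.2 CPM against 3.50, 1.74 and 3.53 in PAX6 KO and 138 and 108.8 in WT (2.97 ± 0.30, adjusted p = 7.27e-05). HHEX, a homeobox gene of delta cells, had 5.26, 5.67 and 3.30 CPM in ISL1 KO and 5.43, 7.19 and 8.09 in PAX6 KO and was not called (−0.54 ± 0.26, adjusted p = 0.233). Another 2 genes of the list, GHSR and PRG4, were too low to be tested. Of 13 gamma cell genes tested, 3 were higher in PAX6 KO and 1 in ISL1 KO (30.8%; median −0.28). The 3 were SLITRK6, a neuronal adhesion receptor (−2.99), ABCC9, a regulatory subunit of ATP-sensitive potassium channels (−2.32), and ETV1, an ETS transcription factor (−1.17). The other was SERTM1, a membrane protein (1.62). DESeq2 called 4 gamma cell genes higher in PAX6 KO and 3 in ISL1 KO.

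Beta cell genes leaned towards ISL1 KO. Of 28 tested, 10 were higher in ISL1 KO and 4 in PAX6 KO (50.0%; median 0.43), and leaving out single libraries gave 7 to 9 and 3 to 4. FFAR1, a fatty acid receptor that enhances insulin release, had 13.4, 16.99 and 15.4 CPM in ISL1 KO, 0.0936, 0.428 and 0.101 in PAX6 KO and 70.04 and 78.1 in WT. It was close to absent from every PAX6 KO library and intermediate in ISL1 KO (6.16 ± 0.36, adjusted p = 1.3e-06). G6PC2, an islet glucose-6-phosphatase, had 59, 71 and 98 counts in ISL1 KO and 0 in each PAX6 KO library, at least 21.5-fold higher in ISL1 KO than a floor of 3 counts per library, while WT had 4084 and 3444 counts. UCN3, urocortin 3 of mature beta cells, had 1.71, 1.67 and 1.61 CPM in ISL1 KO, 0.0187, 0.0329 and 0.0506 in PAX6 KO, from 1, 2 and 3 counts, and 2.42 and 1.26 in WT (adjusted p = 3.22e-05). PAX4, a paired homeodomain factor of the beta and delta lineage, was higher in PAX6 KO, with 157, 125.8 and 176 CPM against 49.7, 48.9 and 57.2 in ISL1 KO and 52.8 and 92.9 in WT (−1.56 ± 0.19, adjusted p = 0.000264). PDX1 and MAFA, factors of beta cells, were not called (0.36 ± 0.13 and 0.65 ± 0.30, adjusted p = 0.117 and 0.222). NKX6-1, a beta cell homeobox gene, had 191, 189 and 238 CPM in ISL1 KO and 139, 81.5 and 127 in PAX6 KO, and all 6 lay above the 41.6 and 72.6 of WT. Its difference of 0.83 ± 0.22 (adjusted p = 0.0342) was lost without any of the 3 ISL1 KO libraries, PAX6 KO replicate 2 or PAX6 KO replicate 3 (adjusted p of up to 0.1).

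Markers of enterochromaffin-like cells, the serotonin-making cells that arise beside beta cells in such cultures, were called in 1 direction. Of 14 tested, 6 were higher in ISL1 KO and 0 in PAX6 KO (42.9%; median 0.59). DDC, the decarboxylase of the last step of serotonin synthesis, had 620.2, 623 and 758 CPM in ISL1 KO, 414, 333 and 466 in PAX6 KO and 289 and 293 in WT. The knockouts did not overlap, and both lay above WT (0.72 ± 0.13, adjusted p = 0.00366). LMX1A, a LIM homeobox gene, had 268, 287 and 321 CPM in ISL1 KO, 193, 135 and 147 in PAX6 KO and 82.8 and 88.4 in WT (0.88 ± 0.13, adjusted p = 0.00128). MME, a membrane peptidase, had 192, 248 and 238 CPM in ISL1 KO and 125.4, 80.8 and 98.2 in PAX6 KO (1.16 ± 0.15, adjusted p = 0.00052), and TAC1, the precursor of substance P, 3.07, 2.27 and 2.56 and 0.412, 0.461 and 0.625 (2.39 ± 0.39, adjusted p = 0.00231). The best known markers of these cells did not pass between the knockouts. TPH1, the first enzyme of serotonin synthesis, had 145, 180.5 and 236 CPM in ISL1 KO and 147, 94.6 and 144 in PAX6 KO (0.54 ± 0.25, adjusted p = 0.211). FEV, their ETS transcription factor, had 985, 839.9 and 1261 and 811, 559.8 and 952 CPM (0.41 ± 0.19, adjusted p = 0.224). Both were called higher than WT in each knockout, by 2.12 and 1.58 for TPH1 and by 1.44 and 1.03 for FEV on the log2 scale.

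**Figure D3:**
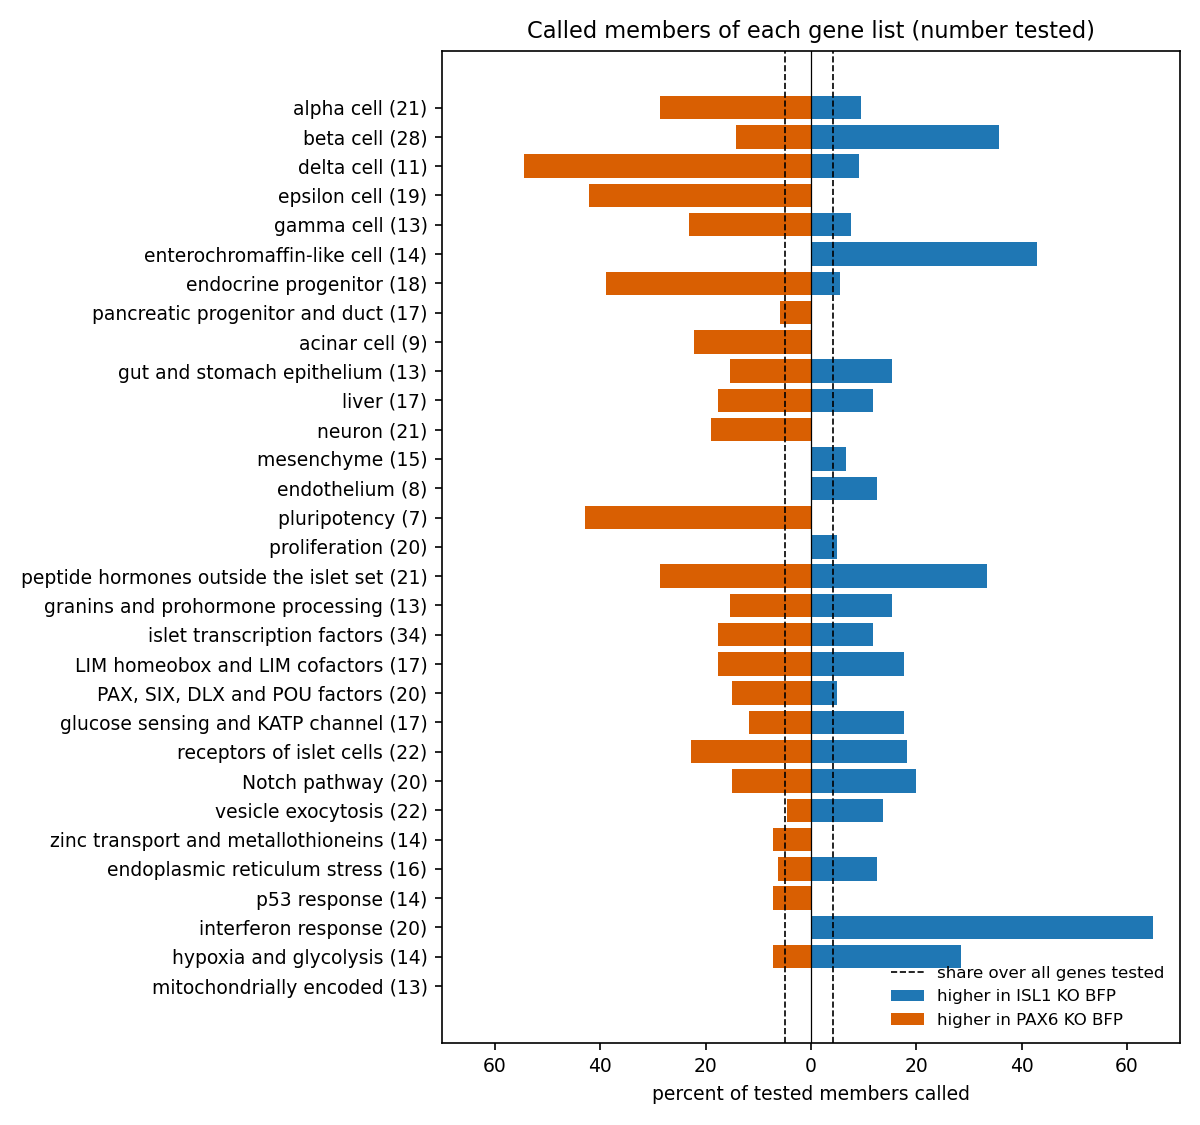
Percent of the tested members of each of 31 gene lists called higher in ISL1 KO BFP (blue, right) or in PAX6 KO BFP (orange, left), with the number tested in brackets and dashed lines at 4.17% and 4.99%, the shares over all genes tested. The epsilon, delta and endocrine progenitor bars reach left and the interferon, beta and enterochromaffin-like bars right.

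Of 18 endocrine progenitor genes tested, 7 were higher in PAX6 KO and 1 in ISL1 KO, and 10 were not called (44.4%; median −0.49). Leaving out single libraries gave 5 to 8 higher in PAX6 KO. NEUROG3, which starts the endocrine programme, had 287, 299.9 and 364 CPM in ISL1 KO, 1009, 686 and 1117 in PAX6 KO and 107 and 162 in WT. All knockout libraries lay above WT, and those of PAX6 KO above those of ISL1 KO (−1.56 ± 0.24, adjusted p = 0.00172). BTBD17, a BTB domain protein marking NEUROG3-positive cells, had 63.6, 54.6 and 78.9 CPM in ISL1 KO, 414, 273 and 428 in PAX6 KO and 180.0 and 303 in WT (−2.50 ± 0.23, adjusted p = 3.59e-05). NEUROD1 and NKX2-2, factors downstream of NEUROG3, were not called (0.26 ± 0.19 and −0.72 ± 0.24, adjusted p = 0.448 and 0.0914).

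The Notch pathway, by which differentiating cells hold back their neighbours, changed in both directions: of 20 genes tested, 4 were higher in ISL1 KO and 3 in PAX6 KO (35.0%; median 0.05). Among the ligands, DLL1 had 29.6, 28.6 and 34.3 CPM in ISL1 KO and 68.5, 56.8 and 55.1 in PAX6 KO (−0.96 ± 0.14, adjusted p = 0.000842). DLL4 ran the opposite way, with 100, 98.5 and 108 CPM in ISL1 KO and 63.5, 42.4 and 55.6 in PAX6 KO (0.92 ± 0.13, adjusted p = 0.000853). Of the target genes, the repressors HEYL and HEY2 were higher in ISL1 KO, HEYL at 4.17, 4.07 and 6.07 CPM against 0.580, 0.526 and 0.489 (3.16 ± 0.36, adjusted p = 0.000173) and HEY2 at 8.27, 8.27 and 6.42 against 2.04, 3.16 and 2.50 (1.57 ± 0.22, adjusted p = 0.000712). HES6, which opposes HES1, and LFNG, which glycosylates Notch receptors, were higher in PAX6 KO (−0.59 and −1.61), and the Notch-related membrane protein gene DLK1 in ISL1 KO (1.59); these 3 are named to complete the list.

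Of 34 islet transcription factors tested, 4 were higher in ISL1 KO and 6 in PAX6 KO (29.4%; median −0.07). Besides NEUROG3, PAX4 and ISL1, PAX6 KO was higher in ST18, a zinc finger factor (13.99, 19.3 and 17.2 CPM in ISL1 KO and 54.5, 35.1 and 53.7 in PAX6 KO; −1.51 ± 0.19, adjusted p = 0.000443), and in ETV1. ISL1 KO was higher in LMX1A and NKX6-1, above, and in MNX1 (0.80), a homeobox gene of beta cells. Of the 4, 1 was called without PAX6 KO replicate 3, and without PAX6 KO replicate 2 the list had 11 genes higher in PAX6 KO instead of 6. Among 17 LIM homeobox genes and cofactors, 3 were called in each direction (35.3%). LDB2, an adaptor of LIM proteins related to LDB1, had 2.81, 3.15 and 5.32 CPM in ISL1 KO, 17.1, 9.71 and 16.1 in PAX6 KO and 14.6 and 25.7 in WT (−1.92 ± 0.30, adjusted p = 0.00155). LHX1, a LIM homeobox gene, was also higher in PAX6 KO (−1.82). SSBP2, which binds LDB proteins, had 43.5, 46.9 and 54.1 CPM in ISL1 KO and 29.1, 29.2 and 32.9 in PAX6 KO (0.67 ± 0.13, adjusted p = 0.00598), and LMO1, a LIM-only protein, was higher in ISL1 KO as well (1.78). ISL2, the closest relative of ISL1, stood under 1 CPM in all 6 libraries and was not called (1.04 ± 0.57, adjusted p = 0.298). Of 20 tested genes of PAX, DLX, POU and related homeobox families, 3 were higher in PAX6 KO, PAX4 and POU2F2 among them. The 3 fell to 1 without any one of ISL1 KO replicate 1 or 2 or PAX6 KO replicate 1 or 3. In this list SIX3 was higher in ISL1 KO. Over all genes tested, 4.99% were higher in PAX6 KO and 4.17% in ISL1 KO. SIX3, a homeobox gene of forebrain and eye, had 2.56, 2.58 and 1.77 CPM in ISL1 KO, 0.543, 0.543 and 0.456 in PAX6 KO and 0.297 and 0.711 in WT (2.16 ± 0.35, adjusted p = 0.00213). POU2F2, a POU factor, lost its call without ISL1 KO replicate 1 or 2 or PAX6 KO replicate 1 or 3 (adjusted p of up to 0.0829).

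Genes that process and release hormones differed at single steps. Of 13 granin and prohormone processing genes, 2 were called in each direction (30.8%; median 0.02). PCSK1, a convertase that cuts proinsulin, had 77.6, 103 and 109.4 CPM in ISL1 KO, 241, 139.8 and 205 in PAX6 KO and 62.9 and 83.4 in WT (−1.01 ± 0.19, adjusted p = 0.00564). CPE, the carboxypeptidase that trims the cut peptides, had 309.9, 354 and 387 CPM in ISL1 KO, 945, 639.7 and 1070 in PAX6 KO and 1045 and 1324 in WT (−1.34 ± 0.17, adjusted p = 0.000491). SCGN, a calcium sensor of secretion, was higher in ISL1 KO at 753, 741 and 949.9 CPM against 442, 311 and 491 (0.97 ± 0.18, adjusted p = 0.00546), as was VGF, a granin-like precursor (1.02 ± 0.17, adjusted p = 0.00246). Of 22 vesicle exocytosis genes, RAB27A (1.10), a GTPase that docks granules, SYT4 (0.91), a synaptotagmin, and DOC2B (1.03), a calcium sensor of fusion, were higher in ISL1 KO, and SV2A (−0.63), a vesicle glycoprotein, was higher in PAX6 KO (18.2%). The SV2A call was lost without any library other than PAX6 KO replicate 2 (adjusted p of up to 0.186).

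Receptor genes of islet cells split between the knockouts. Of 22 receptor genes of islet cells tested, 4 were higher in ISL1 KO and 5 in PAX6 KO (40.9%; median 0.16). Free fatty acid receptors split: FFAR1 was high in ISL1 KO and FFAR4 high in PAX6 KO, as given above. FFAR3, a receptor of short-chain fatty acids that lies next to FFAR1 on chromosome 19, had 0.771, 0.746 and 0.653 CPM in ISL1 KO and 5.37, 4.11 and 3.005 in PAX6 KO (−2.52 ± 0.30, adjusted p = 0.000251); it has a near-identical neighbour, GPR42, with which it may share reads. The other receptors higher in PAX6 KO were GPR119 (−1.65), a lipid receptor, GALR1 (−2.72), a galanin receptor, and AVPR1B (−4.68), a vasopressin receptor; the others higher in ISL1 KO were CASR, PTGER3 and the insulin receptor INSR (0.47). These receptors beyond FFAR1, FFAR4, PTGER3 and CASR are named to complete the counts. Of 17 genes of glucose sensing and the ATP-sensitive potassium channel, 3 were higher in ISL1 KO and 2 in PAX6 KO (29.4%), and leaving out single libraries left 1 or 2 of the 3. SLC2A1, the glucose transporter GLUT1, had 152, 136 and 167 CPM in ISL1 KO, 299.7, 253 and 306 in PAX6 KO and 173 and 145 in WT (−0.92 ± 0.14, adjusted p = 0.0012). SLC2A3, another glucose transporter, was higher in PAX6 KO (−0.73), a call lost without ISL1 KO replicate 1 or 2 or PAX6 KO replicate 3. Besides G6PC2, ISL1 KO was higher in TRPM5, a cation channel (1.56), and in ABCC8, the sulfonylurea receptor (0.57); TRPM5 lost its call without ISL1 KO replicate 1 or 2 or PAX6 KO replicate 1 or 3.

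Interferon response genes were called in 1 direction. Of 20 tested, 13 were higher in ISL1 KO and 0 in PAX6 KO (65.0%; median 0.94), and 10 to 14 were higher in ISL1 KO when single libraries were left out. OAS1, an enzyme that senses double-stranded RNA, had 29.02, 27.0 and 35.7 CPM in ISL1 KO, 7.06, 6.38 and 8.56 in PAX6 KO and 8.98 and 12.03 in WT. The ISL1 KO libraries stood above both other groups (2.06 ± 0.17, adjusted p = 1.79e-05). IRF7, a transcription factor that amplifies interferon signalling, had 57.5, 52.0 and 66.2 CPM in ISL1 KO, 23.2, 22.6 and 24.7 in PAX6 KO and 25.8 and 27.0 in WT (1.32 ± 0.11, adjusted p = 1.64e-05). ISG15, a ubiquitin-like modifier, had 88.6, 72.2 and 87.5 CPM in ISL1 KO and 28.5, 27.8 and 31.5 in PAX6 KO (adjusted p = 3.07e-05), groups that did not overlap. MX1, an antiviral GTPase, had 158, 161 and 137 and 54.3, 77.2 and 56.5 (1.27 ± 0.14, adjusted p = 0.000145). Against WT, the list had 7 genes higher and 4 lower in ISL1 KO, and 0 higher and 10 lower in PAX6 KO. Members of the OAS and IFIT families, like those of the metallothioneins, PPY and PYY, or MYH6 and MYH7, are similar in sequence, so reads may have been split between them.

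**Figure D4:**
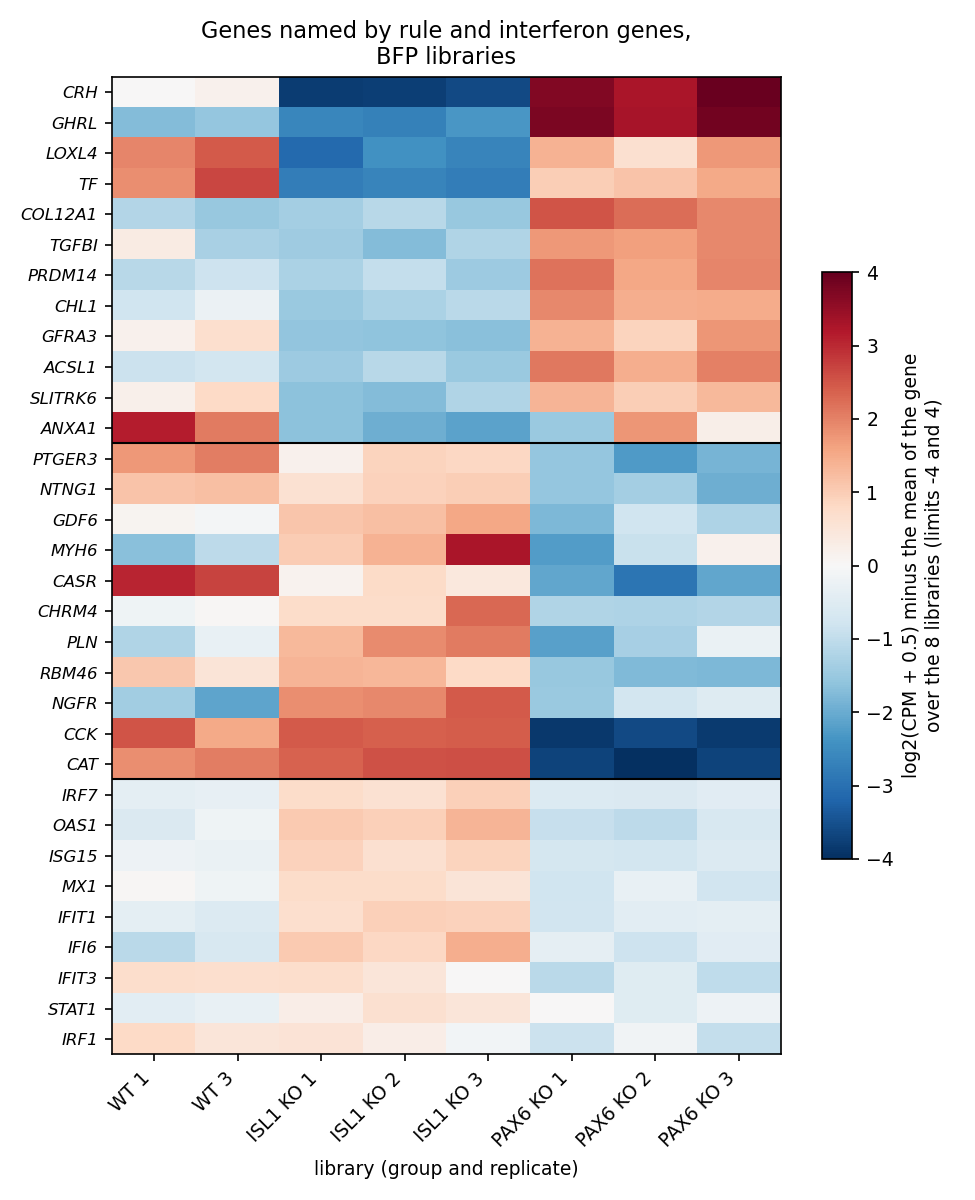
Heat map of log2(CPM + 0.5) minus the mean of each gene over 8 libraries (colour, limited to −4 and 4) for genes with the largest called differences by rule, 12 higher in PAX6 KO and 11 higher in ISL1 KO, and for 9 of the 13 called interferon genes, in the WT, ISL1 KO and PAX6 KO BFP libraries. In the lowest block the 3 ISL1 KO columns are redder than the 3 PAX6 KO columns for OAS1, IRF7 and ISG15.

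Of 14 hypoxia and glycolysis genes, 4 were higher in ISL1 KO and 1, SLC2A1, in PAX6 KO (35.7%; median 0.29). NDRG1, a hypoxia-induced gene, had 310.4, 308 and 241 CPM in ISL1 KO and 150.2, 201 and 137 in PAX6 KO (0.81 ± 0.16, adjusted p = 0.00637), and LDHA, which makes lactate, 401, 386 and 315 and 196, 252 and 236 (0.69 ± 0.13, adjusted p = 0.00683). The glycolytic enzymes ENO1 and PGK1 were at 0.52 and 0.33; leaving out ISL1 KO replicate 1, ISL1 KO replicate 2 or PAX6 KO replicate 1 left 2 of the 4. Of 16 genes of endoplasmic reticulum stress, 18.8% were called. HERPUD1 (0.61) and SDF2L1 (0.45), which act in the clearance and folding of proteins there, were higher in ISL1 KO. Neither was called without ISL1 KO replicate 1. ERN1, the sensor that splices XBP1, was higher in PAX6 KO, at 38.8, 25.98 and 32.8 CPM against 12.3, 10.96 and 11.8 (−1.48 ± 0.17, adjusted p = 0.000231). CDKN1A, the cell cycle inhibitor p21, was the 1 of 14 p53 response genes called (7.14%, −0.47 ± 0.11, adjusted p = 0.0211). MT1F was the 1 of 14 zinc and metallothionein genes called (7.14%, −0.73 ± 0.21, adjusted p = 0.0458). Both shares were under the 9.16% called over all genes tested. The CDKN1A and MT1F calls were each lost without any of several libraries (adjusted p of up to 0.0861 and 0.139). None of the 13 mitochondrially encoded genes was called by edgeR or by DESeq2, 8 had an unadjusted p under 0.05 in edgeR, and 7 were higher in ISL1 KO without ISL1 KO replicate 2.

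Among lists for cells other than islet cells, several counts rested on single libraries. Of 20 proliferation genes, 1 was called (5.0%, against 9.16% of all genes tested). It was AURKA, a mitotic kinase (0.68 ± 0.16, adjusted p = 0.021), and the list median was 0.69. Without PAX6 KO replicate 2, 18 of the 20 were called higher in ISL1 KO, and with a replicate block 14 were. None was called by edgeR without any one of ISL1 KO replicate 1 or 2 or PAX6 KO replicate 1 or 3, where AURKA had an adjusted p of up to 0.087. MKI67, the marker of cycling cells, had 62.6, 58.8 and 40.0 CPM in ISL1 KO and 29.8, 49.4 and 16.1 in PAX6 KO, where replicate 2 was the highest (0.76 ± 0.36, adjusted p = 0.222). Pluripotency genes had 3 of 7 tested (42.9%) higher in PAX6 KO, and 2 of the list's genes, NANOG and TDGF1, were too low to be tested. PRDM14, a repressor active in embryonic stem cells and germ cells, had 2.53, 3.24 and 2.15 CPM in ISL1 KO, 32.3, 20.96 and 27.5 in PAX6 KO and 2.90 and 3.58 in WT (−3.35 ± 0.31, adjusted p = 3.89e-05). SOX2, shared by stem cells, stomach and neural cells, had 12.04, 11.4 and 14.9 CPM in ISL1 KO, 38.5, 28.3 and 46.3 in PAX6 KO and 4.21 and 7.30 in WT (−1.56 ± 0.23, adjusted p = 0.00129), and LIN28A was the third (−0.95), a call lost without ISL1 KO replicate 1 or 2 or PAX6 KO replicate 3 (adjusted p of up to 0.0585).

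Of 21 neuronal genes, 4 were higher in PAX6 KO, against 4.99% of all genes tested, and 0 in ISL1 KO (median −0.22). They were MAP2, a microtubule protein of dendrites, at 23, 29.9 and 25.9 CPM in ISL1 KO and 122.4, 73.1 and 103 in PAX6 KO (−1.92 ± 0.21, adjusted p = 0.000145), the neurofilament genes NEFM (−1.005) and NEFL (−0.81), and the RNA-binding protein gene ELAVL4 (−1.20). Without ISL1 KO replicate 1 or 2, 2 of the 4 were called. Of 17 liver genes, 2 were higher in ISL1 KO and 3 in PAX6 KO (29.4%): APOC3 (0.80) and APOH (1.72), both apolipoproteins, against TF, TTR and VTN (−0.76), the last encoding vitronectin. TF, transferrin, had 9.86, 10.7 and 9.71 CPM in ISL1 KO, 136, 152 and 199.8 in PAX6 KO and 253 and 444 in WT (−4.01 ± 0.22, adjusted p = 8.8e-07). Gut and stomach epithelium had 2 of 13 in each direction (30.8%): CDX2 (0.63) and TFF3 (1.13) higher in ISL1 KO, SOX2 and CLDN18 (−0.90) higher in PAX6 KO. The CDX2 and CLDN18 calls were lost without most single libraries (adjusted p of up to 0.184 and 0.16). Single genes were called among 17 pancreatic progenitor and duct genes (PTF1A, −2.08, not called without ISL1 KO replicate 2 or PAX6 KO replicate 3), 15 mesenchymal genes (VIM, 0.61) and 8 endothelial genes (ESAM, 1.76). These were 5.88%, 6.67% and 12.5% of the tested members, against 9.16% of all genes tested. Of 9 acinar genes tested of 16, the elastase gene CELA3A (−2.19) and the carboxypeptidase gene CPB1 (−4.57) were higher in PAX6 KO (22.2%). CPB1 had 0, 6 and 7 counts in ISL1 KO against 23, 205 and 68 in PAX6 KO. Its call was lost without ISL1 KO replicate 1 or 2.

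The 12 genes with the largest differences in each direction, taken by rule from called genes of moderate or high level, add genes outside the lists. CAT, which encodes the peroxide-degrading enzyme catalase (chromosome 11, 34438925 to 34472062), had 98.7, 112.8 and 114 CPM in ISL1 KO, 0.973, 0.724 and 0.979 in PAX6 KO and 69.4 and 78.8 in WT. It was near 1 CPM in every PAX6 KO library, while ISL1 KO was above WT (6.93 ± 0.15, adjusted p = 7.98e-11). NGFR, the low-affinity neurotrophin receptor, had 14.6, 15.2 and 22.03 CPM in ISL1 KO, 0.992, 1.99 and 2.41 in PAX6 KO and 1.07 and 0.465 in WT (3.26 ± 0.63, adjusted p = 0.00627). Its ISL1 KO libraries stood above both other groups. RBM46, an RNA-binding protein of germ cells, and NTNG1, a netrin-related axon guidance gene, were instead close to WT in ISL1 KO and low in PAX6 KO, with differences of 3.15 ± 0.23 and 2.65 ± 0.20. CHRM4, a muscarinic acetylcholine receptor, and GDF6, a growth factor of the BMP family, were also higher in ISL1 KO (2.98 ± 0.39 and 2.72 ± 0.26); CHRM4 was at 8.14, 8.17 and 25.1 CPM in the ISL1 KO libraries, the third apart from the others.

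In the other direction, COL12A1, a fibril-associated collagen, had 2.36, 2.87 and 2.05 CPM in ISL1 KO, 41.3, 34.4 and 27.4 in PAX6 KO and 2.78 and 2.05 in WT, so that PAX6 KO stood alone (−3.82 ± 0.26, adjusted p = 6.22e-06). The same order held for TGFBI, a matrix protein induced by TGF-beta, at 3.48, 2.71 and 4.15 CPM in ISL1 KO and 34.8, 32.6 and 40.0 in PAX6 KO, with WT at 12.8 and 3.85 (−3.38 ± 0.46, adjusted p = 0.000702). CHL1, a neural adhesion molecule, had 1.33, 1.64 and 1.92 CPM in ISL1 KO and 19.2, 13.8 and 14.01 in PAX6 KO (−3.26 ± 0.33, adjusted p = 8.06e-05). GFRA3, the receptor of artemin, had 2.40, 2.32 and 2.22 and 22.1, 15.4 and 28.98 (−3.26 ± 0.24, adjusted p = 9.22e-06). For ANXA1, a phospholipid-binding protein, the PAX6 KO replicates spread from the level of ISL1 KO to far above it (2.44, 1.88 and 1.58 CPM in ISL1 KO against 2.79, 30.5 and 10.4). Its call (adjusted p = 0.0318) was lost without any library other than PAX6 KO replicate 1, with an adjusted p of up to 0.101.

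PLN and MYH6, among the 12 genes higher in ISL1 KO, encode heart muscle proteins, phospholamban and a myosin heavy chain. MYH6 had 37.8, 49.8 and 181 CPM in ISL1 KO and 3.54, 9.76 and 21.1 in PAX6 KO (2.96 ± 0.67, adjusted p = 0.0163), and lost its call without ISL1 KO replicate 3 (adjusted p = 0.0574). A list of 15 heart muscle genes was therefore added after these values were seen. Its summed level was 187.0, 232.3 and 776.7 CPM in ISL1 KO, 37.7, 61.6 and 122.8 in PAX6 KO and 34.3 and 83.0 in WT. Of the 15, 6 were higher in ISL1 KO, where 4.17% of all genes tested were, and 0 in PAX6 KO. Without ISL1 KO replicate 3, 2 were higher in ISL1 KO. The list includes PLN and MYH6, which prompted it, so its count is no separate support for a difference in such genes. ISL1 KO replicate 3 had the highest sum and also lay at an end of the second principal component. Whether these are related was not tested, nor was the part of that library in other differences.

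Some genes were near 0 in 1 of these 2 knockouts and not in the other; they were picked after their values were seen, as those under 1 CPM in every library of 1 knockout and at 5 CPM or more in every library of the other. There were 16 such genes low in ISL1 KO and 5 low in PAX6 KO. Of the 16, 3 were at 5 CPM or more in both WT libraries and 6 were under 1 CPM in both. TSPYL5, a nucleosome assembly protein relative, had 0.295, 0.0811 and 0.232 CPM in ISL1 KO, 55.2, 43.1 and 46.6 in PAX6 KO and 39.5 and 41.4 in WT, and ZNF585A, a zinc finger gene, 0.115, 0.162 and 0.0436, 16.7, 13.5 and 17.2 and 14.2 and 15.8. Both were low in ISL1 KO and not in the other groups, with mean levels of 91.5 and 20.1 CPM in PDX1 KO. HELT, a basic helix-loop-helix repressor of neural progenitors, instead stood alone in PAX6 KO, at 807, 652 and 1039 counts against 2, 4 and 5 in ISL1 KO and 7 and 0 in WT, with a mean of 0.26 CPM in PDX1 KO. The 5 low in PAX6 KO were CAT, GIP, FFAR1, CACNG5, an auxiliary subunit gene of ion channels, and CHCHD2. CHCHD2, a mitochondrial protein, had 8742, 7961 and 9541 counts in ISL1 KO, 1, 1 and 0 in PAX6 KO and 7 and 7 in WT, and a mean of 0.0118 CPM in PDX1 KO, so that the ISL1 KO line stood apart from the others. GIP was also near 0 in PDX1 KO, at a mean of 0.355 CPM, and CAT was not, at 151.0 CPM.

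Genes next to the edited loci were examined within 1 Mb on each side. Around PAX6, 11 other genes were tested and 3 were called, all higher in PAX6 KO, as were 4.99% of all genes tested. The 3 were ELP4 (−0.67), IMMP1L (−0.60) and DCDC1 (−1.14). ELP4, which encodes an Elongator subunit and overlaps the end of PAX6 on the opposite strand, had 24.9, 28.9 and 26.5 CPM in ISL1 KO, 42.3, 34.8 and 50.3 in PAX6 KO and 55.7 and 65.7 in WT. The library kit keeps no strand, so reads in the overlap cannot be assigned to either gene. Around ISL1, 6 other genes were tested and 1 was called, higher in ISL1 KO, as were 4.17% of all genes tested. Whether these small counts differ from those shares was not tested. CAT lies outside this window, on the same chromosome as PAX6.

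The same genotypes were also sampled with a vector for ISL1 and BFP together, in 6 further libraries labelled ISL1 OE that share no library with the comparison above but come from the same 2 lines. ISL1 RNA over the gene had 64.0, 75.5 and 88.1 CPM in ISL1 KO ISL1 OE and 161, 123.7 and 349.8 in PAX6 KO ISL1 OE. Both ranges overlapped those of the BFP libraries, so the vector label is not checked by its own gene. PAX6 KO ISL1 OE replicate 3 stood apart, for example with 2631, 2094 and 16220 CPM of GHRL in replicates 1, 2 and 3. With all 6 libraries, 90 of 20233 genes tested were called (0.445%), all 90 of them among the BFP calls and 89 in the same direction. Leaving out any of the other 5 libraries left 0 to 52. Without replicate 3, 1673 of 20632 were called (8.11%), 846 higher in ISL1 KO (4.1%) and 827 higher in PAX6 KO (4.01%). Of the BFP calls, 950 were also called there, 48.9% of the BFP calls and 56.8% of the ISL1 OE calls, and 949 of the 950 had the same direction. Of the 1902 BFP calls tested there, 1860 (97.8%) had the same sign.

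With the ISL1 vector, ghrelin and CRH RNA were again higher in PAX6 KO and CCK and GIP RNA in ISL1 KO. GHRL, CRH, CCK and GIP differed by −5.74, −6.43, 6.20 and 6.18 on the log2 scale without replicate 3. INS was at 1.35 (adjusted p = 0.00251) without replicate 3 and at 0.56 (adjusted p = 0.688) with it. SST had 4.11, 5.63 and 11.3 CPM in ISL1 KO ISL1 OE, against 0.361, 0.551 and 0.523 in ISL1 KO BFP, and was not called between the genotypes without replicate 3 (−0.03, adjusted p = 0.974). GCG had 2140, 2610 and 5308 CPM in ISL1 KO ISL1 OE and 31.8, 28.4 and 338 in PAX6 KO ISL1 OE, with a difference of 6.80 (adjusted p = 9.72e-05) without PAX6 KO ISL1 OE replicate 3 and of 4.66 (adjusted p = 0.183) with it. Whether the difference in SST or GCG itself changed with the vector was not tested.

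**Figure D5:**
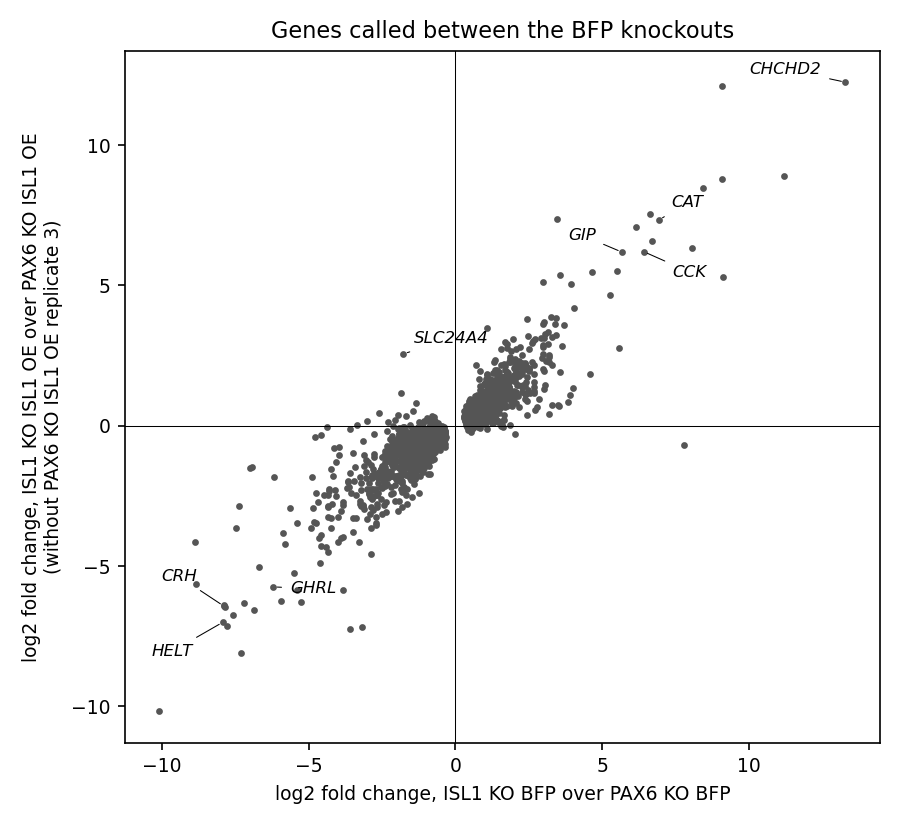
Log2 difference between ISL1 KO and PAX6 KO in the libraries labelled ISL1 OE, without PAX6 KO ISL1 OE replicate 3 (vertical), against the same difference in the BFP libraries (horizontal), 1 point for each of the 1902 BFP calls tested in both. Nearly all points lie in the lower left and upper right quadrants, and SLC24A4 lies in the upper left.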

How the data were processed

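RNA was sequenced from cultured islet-like cells with SMART-Seq v4 and KAPA EvoPrep, per the labels' protocols, and aligned with STAR to GRCh38, per the submitters' processing notes; the labels and headers name no counting program. The authors deposited estimated counts and TPM per gene and lane. Estimated counts were summed over 4 lanes and rounded; TPM served in alternatives alone, and 12 columns of 3 libraries were not used. The 11 BFP libraries in 4 groups were fitted in edgeR 4.0.16 (R 4.3.3) with TMM factors, filterByExpr and 7 residual degrees of freedom, giving 21200 genes tested; the 6 ISL1 OE libraries were fitted apart. Gene positions are from GENCODE on GRCh38.

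Named genes were ISL1, PAX6, a panel of islet genes, the 12 largest called differences in each direction at a mean log2 CPM of 2 or more without overlap, and up to 4 genes per list by adjusted p. The members and lists were chosen with earlier results of these data known. DESeq2 1.42.0, other factors, filters and sample sets, TPM with limma 3.58.1, a replicate block and leaving out each library were alternatives; a lane term and libraries of lanes 1 to 4 alone were added after seeing the data. The code was tested on simulated data. Some genes of the lists and of the rule are not reported here.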

Additional observations from a re-analysis of the deposited data

Results flagged for a closer look

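SLC24A4, which encodes a sodium, potassium and calcium exchanger, was the 1 gene called in opposite directions with the 2 vectors when all 6 libraries of each were used. It had 0.328, 0.308 and 0.203 CPM in ISL1 KO BFP and 1.70, 0.740 and 0.456 in PAX6 KO BFP, a log2 difference of −1.78 (adjusted p = 0.0201), where WT BFP had 10.4 and 10.6. In the libraries labelled ISL1 OE it had 6.33, 6.04 and 7.21 CPM in ISL1 KO and 1.25, 0.969 and 0.901 in PAX6 KO, a log2 difference of 2.65 (adjusted p = 0.014). Every ISL1 KO library was below every PAX6 KO library with BFP and above it with the ISL1 vector. The difference between the vectors was not tested.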

How the results depend on the processing

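Against 883 genes higher in ISL1 KO and 1058 higher in PAX6 KO, fitting the 2 groups alone gave 577 of the former and TPM gave 573 (pseudocount 1) and 551 (pseudocount 0.1). All 8 groups together, which adds the ISL1 OE libraries, gave 219 and 398, and lanes 1 to 4 alone, with 2 libraries a genotype, 193 and 282. Leaving out single libraries gave 517 to 1262 and 655 to 1350, the highest both without PAX6 KO replicate 2. Against WT, 5741 (ISL1 KO) and 5900 (PAX6 KO) became 1449 and 1476 with all 8 groups, 2926 to 4994 and 3239 to 5707 without single libraries, lowest without WT replicate 3. The 90 calls with the ISL1 vector became 837 with DESeq2 and 0 to 1673 without single libraries; at 0 (edgeR, without ISL1 KO ISL1 OE replicate 3), 1337 genes had an unadjusted p under 0.05. Of the named genes 101 were called, 55 with all 8 groups, 63 with lanes 1 to 4 and 82 to 101 without single libraries; of their 1949 values over the alternatives, 192 lost and 17 gained a call and 0 changed sign. Across genes, deviations of same-numbered libraries correlated at −0.018, 0.089 and 0.226, and those of differently numbered ones at −0.169 to 0.103. The 3 values do not settle whether the numbers pair the libraries. A replicate block gave 898 and 1030 calls between the knockouts, 5389 and 5661 against WT, 69 with the ISL1 vector and 99 named genes. It called 14 of 20 proliferation genes higher in ISL1 KO instead of 1, while DESeq2 called 6 of them and no filter 9. The causes were not tested. With 3 libraries a group at this depth, the smallest difference called between the knockouts was 0.29 on the log2 scale.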
